A study of Saccharomyces cerevisiae with 8 samples.

Results

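This report concerns the transcripts of the mRNA decay and deadenylation machinery of the yeast Saccharomyces cerevisiae, in cultures with and without isopropanol. The genes were chosen by name, as 41 standard yeast genes of decapping, deadenylation, the exosome, the Ski complex and nonsense-mediated decay, out of 6227 genes on the array. Each of the 41 had 1 probe, and all 41 were well above background on all 8 arrays, so no member was lost to the filter on dim probes. The isopropanol group held 4 arrays of the diploid laboratory strain BY4743 after 3 h in rich YPD medium with 40 g/l isopropanol (2-propanol). The control group held 4 arrays of the same strain after 3 h in YPD alone. All cultures were 120 ml, kept at 30 °C and shaken at 130 rpm. The dose is taken from the source names and characteristics, while the sample descriptions state it in mg/l. Cultures with 20 g/l isopropanol, mentioned in the series design, are not analysed here.

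Most cytoplasmic mRNAs are first shortened at the poly(A) tail, by the Pan2-Pan3 and Ccr4-Not deadenylases. The shortened mRNA is then bound by the Lsm1-7 ring with Pat1, its cap is removed by Dcp2 with its activator Dcp1, and Xrn1 degrades the body from the 5′ end. Alternatively, the Ski complex feeds the mRNA from its 3′ end into the exosome, which in the nucleus also processes ribosomal RNA precursors. Upf1 (encoded by NAM7), Nmd2 and Upf3 direct mRNAs with premature stop codons to decapping.

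The array carried 12512 yeast spots, 2 for each probe, and 1 colour (Cyanine 3). Values are log2 signal relative to the array's 75th percentile, which stood at 2260 ± 306 intensity units on the isopropanol arrays and 1568 ± 172 on the control arrays (SD, n = 4 each). The 4 isopropanol arrays shared slide 2 and the 4 control arrays slide 1, and no scan held arrays of both groups. The effects of slide, scan and isopropanol cannot be told apart. Control replicate 3 was scanned apart from the other controls. Since no label ties an array to a culture, the p-values cover array-to-array spread alone, possibly technical. Of the genes deleted in BY4743, URA3 cleared background in 0 of its 16 spots over all arrays and LEU2 in 1 of its 16. In bulk cultures fewer cells with a transcript and less of it per cell cannot be told apart.

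The shares of decay transcripts called lower or higher differed by complex. Of all genes 29.7% were called lower and 48.1% higher. All 7 transcripts of the Lsm1-7 ring and 9 of 11 exosome transcripts were lower with isopropanol, and none of either group was higher. Among the deadenylation genes 4 of 8 were lower and 2 higher, and among the decapping genes 3 of 8 were lower and 2 higher. In the Ski complex 3 of 4 were higher and 1 lower, and in nonsense-mediated decay 1 of 3 was higher. The shares called higher in deadenylation (25%), decapping (25%) and nonsense-mediated decay (33.3%) lay below that of all genes. Differences are isopropanol minus control, tested with limma and adjusted over all 5816 genes tested, at an adjusted p under 0.05.

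In all, 32 of the 41 members (78.0%) changed, which is close to the 77.8% called among all genes. Their direction differed from the background: 24 of 41 (58.5%) were lower, against 29.7% of all genes, and 8 of 41 (19.5%) were higher, against 48.1% of all genes. The groups did not overlap for 30 of 41 members (73.2%), against 73.3% of all genes, with isopropanol below control in 23 cases and above it in 7. At least 2-fold changes were called by limma for 0 of 41 members, against 9.47% of all genes. The median log2 change was -0.23 over the members and 0.11 over all genes, and 32 of 41 members lay below the median of all genes. Members are parts of shared complexes in the same cultures and are no replicates of each other.

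These directions hold relative to the bulk of the array and depend on the scaling. Relative to 6 spike-in probes the 75th percentile was higher by 1.16 (log2) on the isopropanol arrays, or by 0.75 without isopropanol replicate 1, whose spike-ins stood apart. On the spike-in scale the change of all 41 members was positive, with 23 called higher and 0 lower. Of all 5816 genes 4543 were called higher on that scale and 19 lower. Without isopropanol replicate 1 that scale gave 29 higher and 0 lower, with NOT5 alone below 0 (-0.064, not passed). Of all 5816 genes 4886 were then called higher and 79 lower. On both spike-in scales the share of members called higher lay below that of all genes. Between the other scalings the median of all genes moved by -0.19 to -0.10 from the reported scale. It was -0.08 with normexp, -0.02 after quantile normalization, -0.05 after median centring and 0.01 after cyclic loess. On the spike-in scale it was 1.27, or 0.86 without isopropanol replicate 1. The median of each complex is to be read against that of all genes under the same setting. With normexp 1 member was higher and 19 lower, against 18.2% and 24% of all genes, and after quantile normalization 3 and 28, against 35.2% and 38.4%. Median centring gave 1 higher and 29 lower, against 34.5% and 42.1% of all genes, and cyclic loess 3 and 28, against 37.8% and 36.6%. Of the 24 members that were lower, 19 passed as lower under each of 5 settings (the reported one, normexp background correction, quantile normalization, median centring and cyclic loess). Of the 8 that were higher, 0 passed as higher under all 5, whereas DCP2 failed only with normexp and SKI2 only after median centring. Among all genes at most 24% passed as lower under all 5 and at most 18.2% as higher, the shares with normexp.

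**Figure D1:**
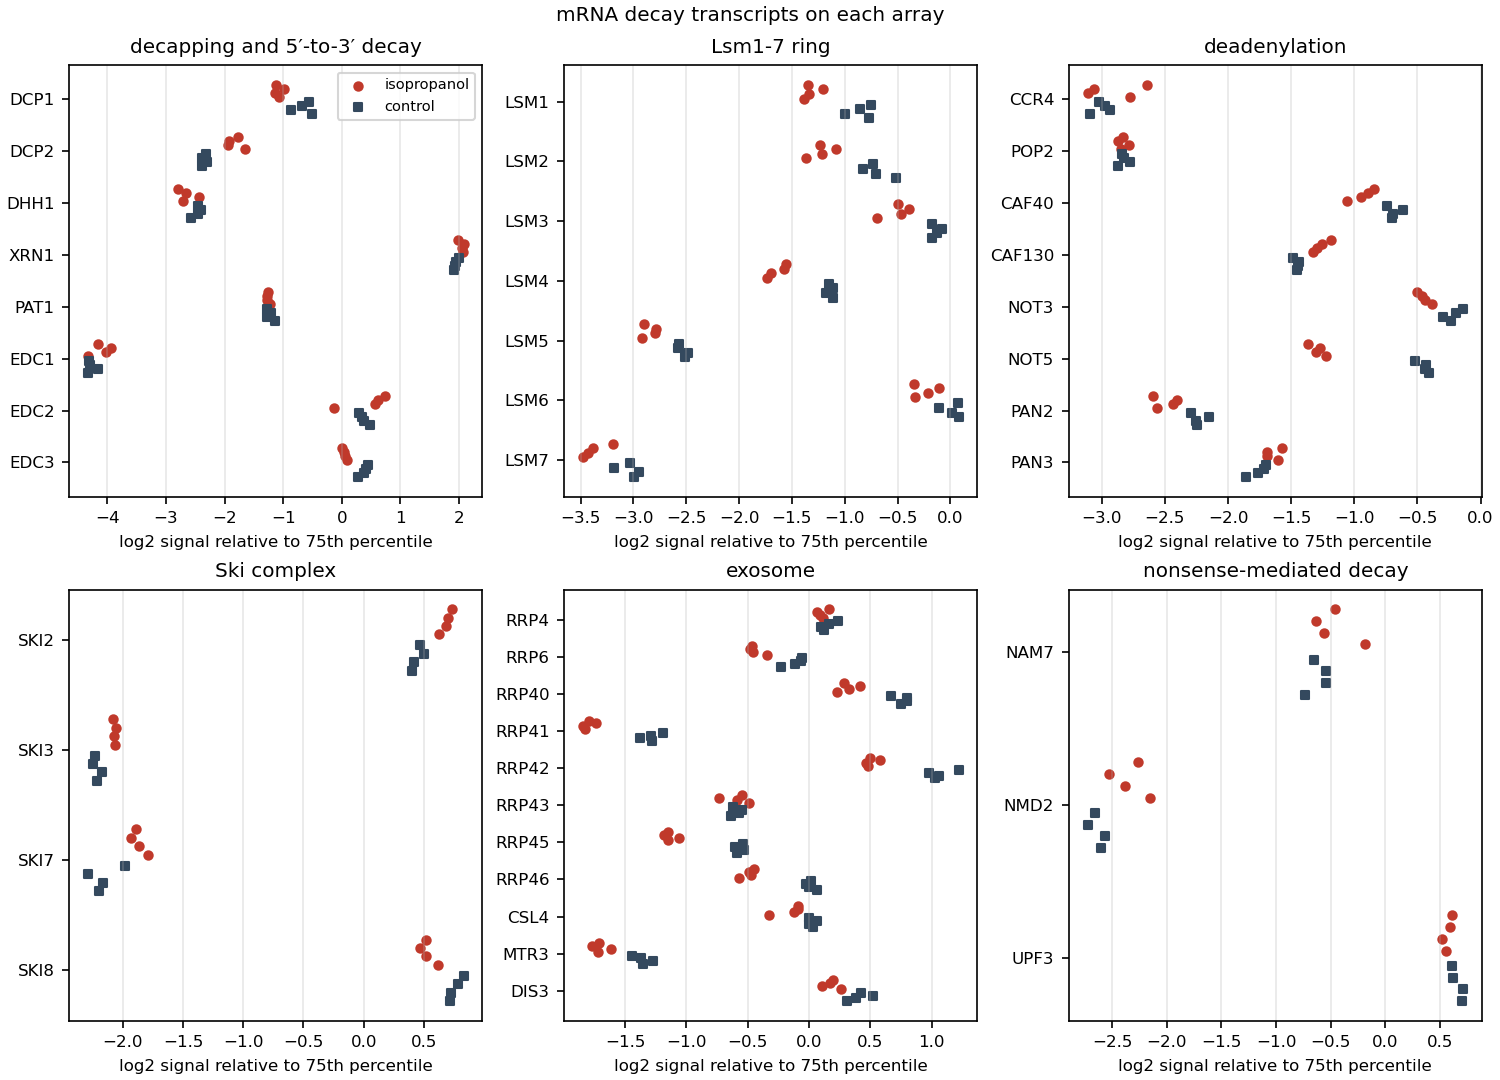
Signal of each member on each array (log2, relative to the array's 75th percentile), with isopropanol arrays as circles above control arrays as squares, in 1 panel per complex. The groups are apart for all 7 Lsm transcripts and 9 of 11 exosome transcripts, and overlap for 5 of 8 decapping transcripts. Of all genes 73.3% had groups apart.

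**Figure D2:**
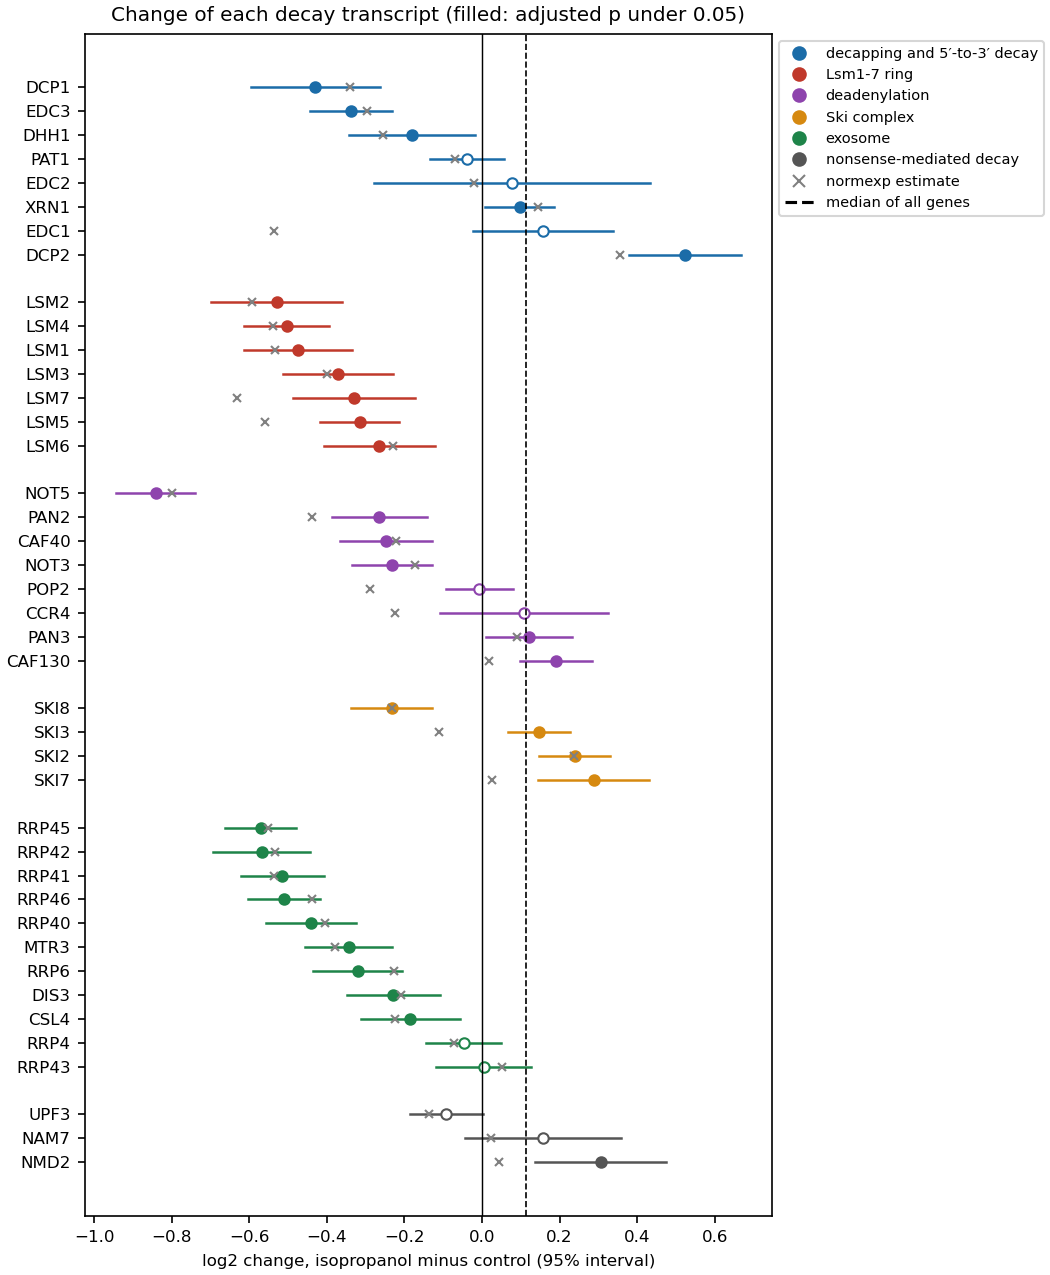
Log2 change (isopropanol minus control) of each member with its 95% interval from limma, filled where the adjusted p was under 0.05, with the normexp estimate as a cross and the median of all genes (0.11) as a dashed line. NOT5 lies farthest to the left (-0.84) and DCP2 farthest to the right (0.52). On the spike-in scale all points would lie 1.16 further to the right, above 0.

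Deadenylation begins decay, and its genes held the largest change among the members. NOT5, which encodes a Ccr4-Not subunit that also contacts ribosomes, had values of -1.37, -1.27, -1.30 and -1.22 on the isopropanol arrays, against -0.52, -0.43, -0.44 and -0.41 on the control arrays. The isopropanol arrays all lay below the control arrays, with a gap wider than the spread of either group. NOT5 was 1.79-fold lower (log2 -0.84, SE 0.05, adjusted p = 7.38e-08), and its change stood at percentile 2.91 of all genes.

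NOT3, the paralog of NOT5, was 1.17-fold lower (-0.23, SE 0.05, adjusted p = 0.000961), with values of -0.50 to -0.39 on isopropanol arrays and -0.30 to -0.14 on control arrays. With normexp NOT3 no longer passed (-0.17, adjusted p = 0.123). CAF40, for a conserved subunit that binds RNA-binding partner proteins, was 1.19-fold lower (-0.25, adjusted p = 0.00155). CAF130, for a yeast-specific subunit, was 1.14-fold higher (0.19, adjusted p = 0.00185), a call lost with normexp, quantile normalization, median centring and cyclic loess.

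The nuclease genes of Ccr4-Not did not pass the test. CCR4, for the main deadenylase, had -2.65, -3.06, -3.11 and -2.77 on the isopropanol arrays, against -3.02, -2.97, -2.93 and -3.10 on the control arrays. Isopropanol replicates 1 and 4 lay above all control arrays, while replicate 3 lay below them. The 95% interval of the CCR4 change ran from -0.11 to 0.33, and CCR4 passed as lower only after cyclic loess (-0.22, adjusted p = 0.0411). POP2 (Caf1), for the partner nuclease, changed by -0.0070, with an interval from -0.09 to 0.08. After median centring, quantile normalization and cyclic loess POP2 passed as lower (-0.17, -0.32 and -0.32).

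The second deadenylase is a nuclease with a regulatory subunit, and their transcripts differed in sign on the reported scale. PAN2, for the nuclease, had -2.60, -2.40, -2.43 and -2.57 on the isopropanol arrays, against -2.29, -2.15, -2.26 and -2.24 on the control arrays. It was 1.201-fold lower (-0.26, SE 0.05, adjusted p = 0.00126), with groups that did not overlap. PAN3, for the subunit that binds poly(A)-binding protein, had -1.57, -1.69, -1.69 and -1.60 on the isopropanol arrays, against -1.70, -1.72, -1.76 and -1.86 on the control arrays. Its rise of 0.12 (adjusted p = 0.0446) was close to the median of all genes (0.11) and lost its call with normexp. It turned to -0.037, -0.037 and -0.049 after quantile normalization, median centring and cyclic loess. Without isopropanol replicate 1 or 4, or control replicate 3 or 4, taken out singly, 1 deadenylation gene was called higher instead of 2. The median over the 8 deadenylation genes was -0.12, which is 0.23 below the median of all genes.

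The Lsm1-7 ring, which binds the ends of deadenylated mRNAs and promotes decapping, moved as a block. LSM2 had -1.24, -1.08, -1.21 and -1.37 on the isopropanol arrays, against -0.74, -0.82, -0.71 and -0.52 on the control arrays. LSM4, whose protein has an aggregation-prone tail found in P-bodies, had -1.55, -1.58, -1.70 and -1.73 with isopropanol, against -1.15, -1.11, -1.18 and -1.11 in control. In both cases all isopropanol arrays lay below all control arrays.

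LSM2 was 1.44-fold lower (log2 -0.53, SE 0.08, adjusted p = 9.54e-05), LSM4 1.42-fold (-0.50, SE 0.05) and LSM1 1.39-fold (-0.47, SE 0.06). LSM1 encodes the subunit that sets the cytoplasmic ring apart from the nuclear one. It had -1.35, -1.20, -1.34 and -1.39 with isopropanol, against -0.75, -0.86, -0.997 and -0.77 in control. LSM3, LSM7, LSM5 and LSM6 changed by -0.37, -0.33, -0.32 and -0.26, with adjusted p between 0.000109 and 0.0034. The gap was narrow for LSM6, where isopropanol replicate 2 (-0.11) and control replicate 2 (-0.10) nearly met, and for LSM7, where isopropanol replicate 1 (-3.20) lay just below control replicate 2 (-3.18).

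The ring's median change was -0.37, or 0.48 below the median of all genes. Array by array, the median over its 7 genes, set against the control mean, ran from -0.54 to -0.34 with isopropanol and from -0.05 to 0.04 in control. All 7 genes passed as lower under each of the 5 settings, against at most 24% of all genes (the share with normexp). The ring's medians under these settings ran from -0.63 to -0.37. On the spike-in scale the ring's median turned to 0.78, against 1.27 for all genes. LSM8, no member here, encodes the subunit that takes the place of Lsm1 in the nuclear ring for splicing RNAs. It was 1.27-fold lower (-0.34, SE 0.07, adjusted p = 0.000868), with values of -2.21 to -1.90 on isopropanol arrays and -1.80 to -1.70 on control arrays.

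The decapping enzyme's 2 subunits had transcripts that moved in opposite directions. DCP2, for the decapping enzyme, had -1.78, -1.92, -1.93 and -1.66 on the isopropanol arrays, against -2.32, -2.38, -2.29 and -2.39 on the control arrays. DCP1, for its activating subunit, had -1.12, -0.99, -1.14 and -1.07 with isopropanol, against -0.55, -0.68, -0.86 and -0.51 in control. Neither gene's groups overlapped.

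DCP2 was 1.44-fold higher (log2 0.52, SE 0.06, adjusted p = 3.08e-05), the largest rise among the members, at percentile 79.9 of all genes. With normexp its change was 0.36 and did not pass (adjusted p = 0.103). DCP1 was 1.35-fold lower (-0.43, SE 0.07, adjusted p = 0.00037) and passed with normexp too (-0.34, adjusted p = 0.0254). EDC3, for a scaffold that joins decapping factors in P-bodies, was 1.26-fold lower (-0.34, SE 0.05, adjusted p = 8.19e-05). Its values were -0.0018, 0.04, 0.05 and 0.08 with isopropanol, against 0.45, 0.41, 0.39 and 0.27 in control, without overlap.

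The remaining decapping and 5′-to-3′ decay genes showed small differences or wide spread. XRN1, for the 5′-to-3′ exonuclease, had 1.99, 2.08, 2.05 and 2.07 with isopropanol, against 1.999, 1.95, 1.93 and 1.91 in control, so that isopropanol replicate 1 lay below control replicate 1. Its rise of 0.10 (adjusted p = 0.0458) was no larger than the median of all genes and turned to -0.062 after median centring. With normexp the rise was 0.14 and did not pass (adjusted p = 0.113). It was 0.27 after quantile normalization and 0.31 after cyclic loess and passed in both. DHH1, for a helicase that represses translation and promotes decapping, fell by 0.18 (adjusted p = 0.0415), with overlapping groups, and lost the call with normexp (adjusted p = 0.192) and without the filter on dim probes (adjusted p = 0.0555). It passed with larger falls after quantile normalization (-0.46), cyclic loess (-0.46) and median centring (-0.34). Without isopropanol replicates 1, 2 or 4, or control replicates 1, 2 or 3, taken out singly, DHH1 had adjusted p between 0.0744 and 0.118. The rise of XRN1 was lost without isopropanol replicates 2, 3 or 4, or control replicates 2, 3 or 4, with adjusted p between 0.0696 and 0.109.

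PAT1, for the scaffold that links the Lsm ring to decapping, changed by -0.04, with an interval from -0.13 to 0.06. It passed as lower after quantile normalization (-0.20), median centring (-0.20) and cyclic loess (-0.16). EDC2, for a decapping activator, had 0.74, 0.61, 0.57 and -0.13 with isopropanol, against 0.29, 0.34, 0.38 and 0.48 in control. Isopropanol replicates 1, 2 and 3 lay above all control values and replicate 4 below them. EDC2 did not pass over all arrays (0.08, SE 0.16), but passed without isopropanol replicate 4 (0.27, adjusted p = 0.00229).

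EDC1, the paralog of EDC2, had -4.16, -3.94, -4.02 and -4.33 with isopropanol, against -4.31, -4.29, -4.15 and -4.32 in control, at percentile 10.8 of mean signal over all genes. Its change of 0.16 did not pass (adjusted p = 0.0967). It passed as higher without isopropanol replicate 4 (0.23, adjusted p = 0.00828) and as lower after quantile normalization (-0.37) and cyclic loess (-0.28). The median over the 8 decapping and 5′-to-3′ decay genes was 0.02, which is 0.09 below the median of all genes. It turned to -0.16 with normexp, -0.25 after quantile normalization, -0.14 after median centring and -0.22 after cyclic loess. Relative to the median of all genes these were -0.08, -0.23, -0.09 and -0.23.

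Exosome transcripts were lower in most parts of the complex. Its ring of RNase PH-like subunits is held by a cap of RNA-binding subunits and carries the nucleases Dis3 and, in the nucleus, Rrp6. Of the 6 ring genes 5 fell, of the 3 cap genes 2 fell, and both nuclease genes fell.

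Among ring genes RRP45 had -1.15, -1.18, -1.06 and -1.15 on the isopropanol arrays, against -0.54, -0.61, -0.53 and -0.58 on the control arrays. RRP42 had 0.49, 0.58, 0.46 and 0.48 with isopropanol, against 1.22, 0.98, 1.06 and 1.03 in control. RRP41, listed in RefSeq as SKI6, had -1.79, -1.73, -1.84 and -1.83 with isopropanol, against -1.19, -1.29, -1.38 and -1.28 in control. All 3 genes had isopropanol arrays clear of the control arrays by more than the range within either group.

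RRP45 and RRP42 were each 1.48-fold lower (log2 -0.57, SE 0.04 and 0.06), with adjusted p of 5.87e-07 and 6.21e-06. RRP41 was 1.43-fold lower (-0.51, adjusted p = 4.2e-06), RRP46 1.42-fold (-0.51, adjusted p = 1.4e-06) and MTR3 1.27-fold (-0.34, adjusted p = 0.000108). RRP43, the remaining ring gene, changed by 0.0040, with an interval from -0.12 to 0.13, and its groups overlapped. RRP43 passed as lower only after median centring (-0.16, adjusted p = 0.0189).

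Of the cap genes RRP40 was 1.36-fold lower (-0.44, adjusted p = 2.31e-05), with 0.22 to 0.42 on isopropanol arrays and 0.67 to 0.80 on control arrays. CSL4 was 1.14-fold lower (-0.19, adjusted p = 0.0128), a call lost with normexp (adjusted p = 0.105). RRP4 changed by -0.05, with an interval from -0.14 to 0.05, and passed only after median centring (-0.21).

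The nuclease gene DIS3 had 0.19, 0.17, 0.10 and 0.26 with isopropanol, against 0.42, 0.52, 0.38 and 0.31 in control. RRP6 had -0.47, -0.49, -0.46 and -0.34 with isopropanol, against -0.06, -0.07, -0.12 and -0.23 in control. DIS3 was 1.17-fold lower (-0.23, adjusted p = 0.00277) and RRP6 1.25-fold (-0.32, adjusted p = 0.000229), and both missed the threshold with normexp (adjusted p = 0.0566 and 0.1). Over the 11 exosome genes the median change was -0.34, or 0.46 below the median of all genes, with all 11 below that median. Array by array the exosome median lay between -0.37 and -0.34 with isopropanol and between -0.02 and 0.01 in control. With normexp 6 of the 11 passed as lower, against 24% of all genes. Under the other settings the median ran from -0.50 to -0.36, and it turned to 0.81 on the spike-in scale, against 1.27 for all genes.

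The Ski complex, a helicase assembly that hands mRNAs to the cytoplasmic exosome, did not follow the exosome genes. SKI2, for the helicase, had 0.74, 0.70, 0.68 and 0.63 on the isopropanol arrays, against 0.47, 0.50, 0.42 and 0.40 on the control arrays. It was 1.18-fold higher (log2 0.24, SE 0.04, adjusted p = 0.000382), and after median centring it no longer passed (0.08). SKI7, for the adaptor that bridges the complex to the exosome, was 1.22-fold higher (0.29, adjusted p = 0.00197), a call lost with normexp, quantile normalization, median centring and cyclic loess.

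SKI3, for the scaffold subunit, was 1.11-fold higher (0.15, adjusted p = 0.00332), close to the median of all genes. Its change turned to -0.11 with normexp, -0.091 after quantile normalization (adjusted p = 0.0429), -0.012 after median centring and -0.076 after cyclic loess. SKI8, for a subunit that also acts in meiotic recombination, was the exception, at 0.52, 0.46, 0.52 and 0.62 with isopropanol, against 0.83, 0.79, 0.72 and 0.71 in control. It was 1.17-fold lower (-0.23, adjusted p = 0.00102) and passed as lower under each of the 5 settings. The Ski median was 0.19, which is 0.08 above the median of all genes. It turned to -0.043 with normexp and -0.0047 after quantile normalization, and was 0.034 after median centring and 0.0027 after cyclic loess. Its difference from the median of all genes was 0.04 with normexp, 0.01 after quantile normalization and 0.08 after median centring. After cyclic loess that difference was -0.0055.

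Of the nonsense-mediated decay genes only NMD2 passed the test. NMD2, for the subunit that joins Upf1 and Upf3, had -2.26, -2.53, -2.38 and -2.16 with isopropanol, against -2.66, -2.73, -2.56 and -2.61 in control. It was 1.24-fold higher (0.31, SE 0.08, adjusted p = 0.00372), and the call was lost with normexp, quantile normalization, median centring and cyclic loess. NAM7, for the helicase Upf1, had -0.46, -0.63, -0.56 and -0.19 with isopropanol, against -0.65, -0.54, -0.54 and -0.73 in control, with overlap (0.16, adjusted p = 0.135). UPF3 changed by -0.09, with an interval from -0.19 to 0.0031, and passed as lower after median centring (-0.25). The median of the 3 genes was 0.16 over all arrays and 0.07 without isopropanol replicate 4, against 0.11 over all genes. It was 0.023 with normexp, 0.036 after quantile normalization and 0.038 after cyclic loess, and turned to -0.0022 after median centring. Relative to the median of all genes these were 0.10, 0.06, 0.03 and 0.04, against 0.04 on the reported scale.

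**Figure D3:**
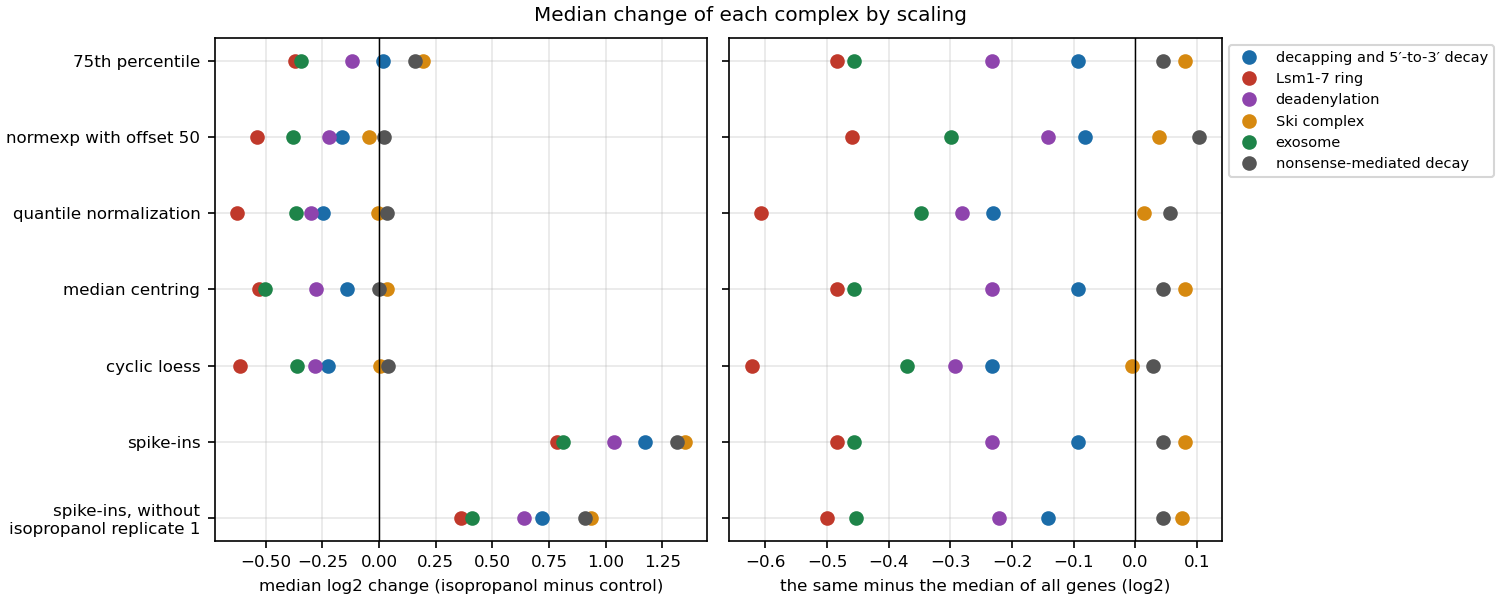
Median log2 change (isopropanol minus control) of each complex under 7 scalings, as measured on the left and after subtraction of the median of all genes on the right. The Lsm ring and the exosome lie 0.30 to 0.62 below the median of all genes in each row, whereas on the left all medians turn positive on the spike-in scale.

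Signal strength moved with the changes across the array. When the genes were sorted into 10 bins of mean signal, the median change was 0.54 in the dimmest bin and -0.28 in the brightest. Of the members 0 lay in the dimmest bin and 1 in the brightest. Of the 8 members that rose, XRN1 and SKI2 stood at percentiles 92.8 and 81.6 of mean signal, where genes were mostly lower. The other 6 (DCP2, CAF130, PAN3, SKI3, SKI7 and NMD2) lay below percentile 50, where the bin medians were positive. The part of signal strength in these changes was not tested.

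**Figure D4:**
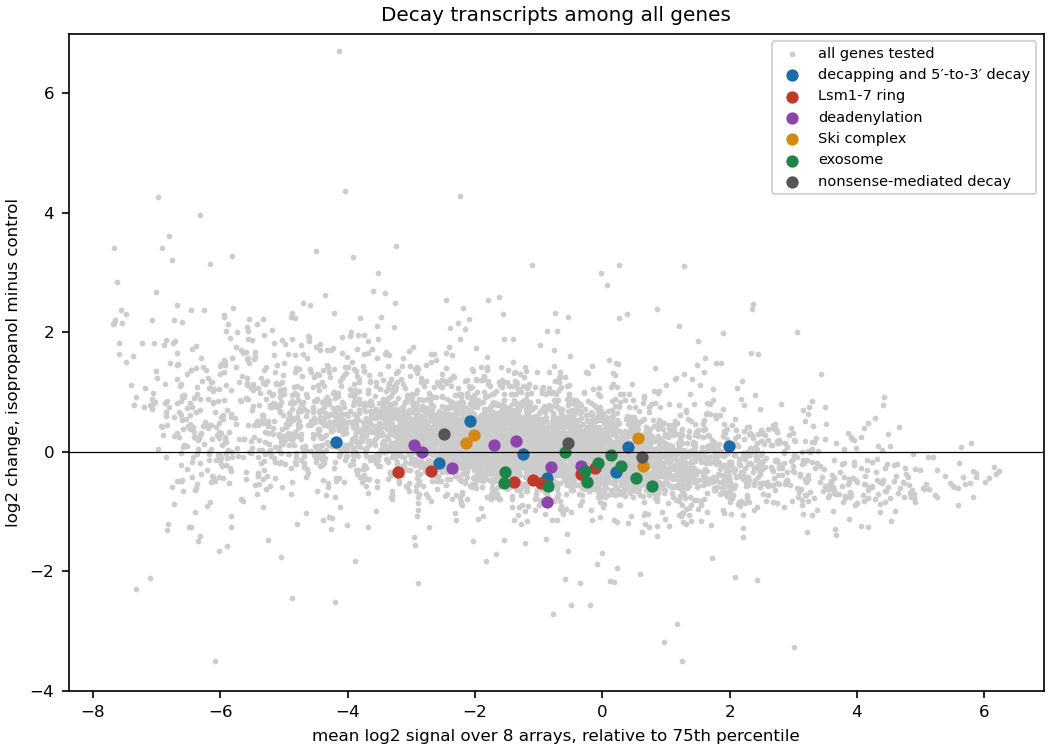
Log2 change (isopropanol minus control, relative to the 75th percentile) against mean log2 signal over 8 arrays, for all 5816 genes tested in grey and the 41 members in colour by complex. Members lie between -0.84 and 0.52, inside the range of all genes (-3.51 to 6.72).

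Ratios of a pair of transcripts on the same array do not depend on a constant scaling of the array. For 8 pairs that share a role the log2 ratio was compared between the groups by an exact two-sided permutation test over the 8 arrays, which can go no lower than 0.0286. The ratio of DCP2 to DCP1 differed by 0.95 (log2), at -0.74 ± 0.15 with isopropanol and -1.70 ± 0.19 in control (SD, n = 4 each). The ratio of NOT5 to NOT3 differed by -0.61, at -0.84 ± 0.03 with isopropanol and -0.23 ± 0.11 in control (SD, n = 4 each). That of PAN2 to PAN3 differed by -0.39, at -0.86 ± 0.16 with isopropanol and -0.47 ± 0.09 in control (SD, n = 4 each).

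These 3 pairs had ratios that did not overlap between the groups, with an exact p of 0.0286 each. After Benjamini-Hochberg adjustment over the 8 pairs it was 0.0762, which does not pass. With only 3 pairs at the lowest possible p the adjusted value could not pass, so the missed threshold says little. DCP2 and DCP1 each lay apart between the groups in opposite directions, as did PAN2 and PAN3. Their ratios therefore had to separate, and their exact p adds nothing to those results. NOT5 and NOT3 were both lower with isopropanol. The gap between the groups in NOT5 (-1.22 against -0.52) was wider than any difference between them in NOT3 (-0.50 against -0.14 at most). The NOT5 to NOT3 ratio therefore also had to separate, and its exact p adds nothing to the result for NOT5. With normexp the 3 differences were 0.70, -0.63 and -0.53. XRN1 to RAT1 (the nuclear 5′-to-3′ exonuclease gene) differed by 0.23 and RRP6 to DIS3 by -0.09, both with an exact p of 0.0571 (0.0914 adjusted). LSM1 to LSM8 differed by -0.13 (exact p = 0.0857, 0.114 adjusted), CCR4 to POP2 by 0.12 (exact p = 0.4, 0.457 adjusted) and EDC1 to EDC2 by 0.08 (exact p = 0.686, also after adjustment). The EDC1 to EDC2 difference turned to -0.52 with normexp. XRN1 to RAT1, RRP6 to DIS3, LSM1 to LSM8 and CCR4 to POP2 kept their signs with normexp (0.30, -0.019, -0.14 and 0.06). A missed threshold does not show that these ratios were equal.

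**Figure D5:**
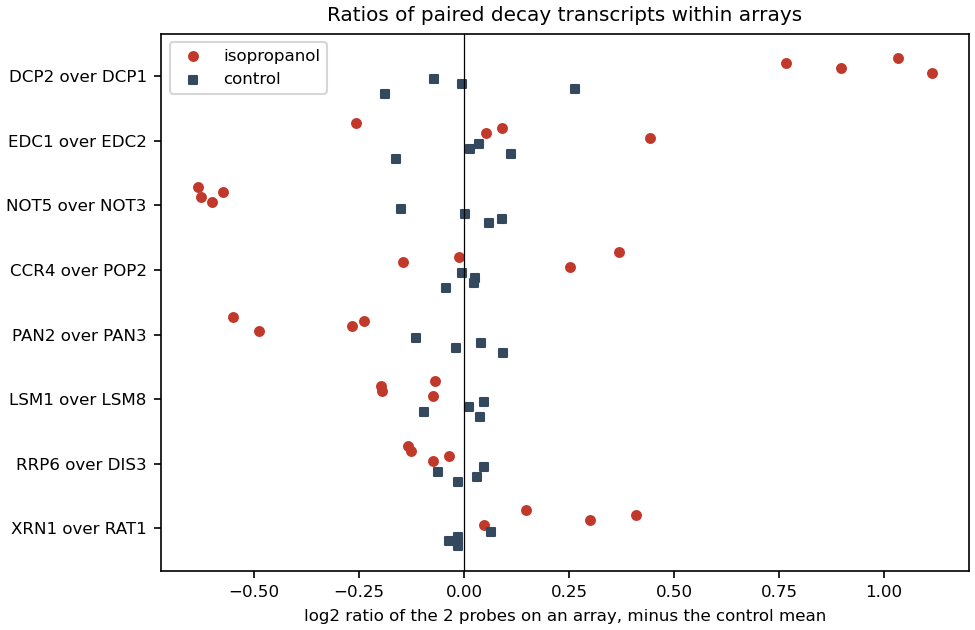
Log2 ratio of the 2 probes of each pair on each array, minus the control mean, with isopropanol arrays as circles and control arrays as squares. The DCP2 to DCP1 ratios of the isopropanol arrays lie to the right of all control arrays, and the NOT5 to NOT3 and PAN2 to PAN3 ratios to the left.

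Other genes of mRNA decay were followed in 5 lists of 40 genes, to be read against the 48.1% of all genes called higher and the 29.7% called lower. Of the 3 remaining Ccr4-Not genes 2 fell and 0 rose. CDC36 (NOT2), for a core subunit, was 1.52-fold lower (-0.60, SE 0.06, adjusted p = 7.65e-06) and MOT2 (NOT4), for the ubiquitin ligase subunit, 1.11-fold lower (-0.15, adjusted p = 0.00434). CDC39 (NOT1), for the scaffold, had -1.32, -1.25, -1.23 and -1.98 with isopropanol, against -1.15, -1.21, -1.19 and -1.21 in control. All isopropanol arrays lay below control, but replicate 4 stood apart and CDC39 did not pass (-0.25, adjusted p = 0.13). It passed as lower after quantile normalization (-0.42), median centring (-0.41) and cyclic loess (-0.38).

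Of 13 nuclear decay cofactor genes 5 fell, against 29.7% of all genes, and 2 rose, against 48.1%. MPP6 was 1.78-fold lower (-0.83, SE 0.10, adjusted p = 1.88e-05), with -2.93 to -2.39 on isopropanol arrays and -1.84 to -1.76 on control arrays. LRP1 (Rrp47), which binds Rrp6, was 1.39-fold lower (-0.48, adjusted p = 6.23e-06), and MTR4, for the helicase of the nuclear exosome, 1.36-fold lower (-0.44, adjusted p = 6.39e-06). These 3 passed with normexp too, and the median of the list was -0.11.

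Among 8 decapping partner and cap scavenging genes 4 rose, a share near the 48.1% of all genes, and 0 fell, against 29.7%. DCS2, which encodes a regulator related to the scavenger decapping enzyme, was 1.55-fold higher (0.64, adjusted p = 4.86e-06), PBY1 1.36-fold and DCS1, for the scavenger enzyme, 1.33-fold. PBP1, for a poly(A)-binding protein partner, was 1.21-fold higher (0.27, adjusted p = 0.00475). With normexp only DCS2 of these 4 passed (0.34, adjusted p = 0.0339), PBY1 also missed the threshold after quantile normalization (adjusted p = 0.0515) and PBP1 after median centring (adjusted p = 0.179). The list's median of 0.20 turned to -0.0084 with normexp, where the median of all genes was -0.08.

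Of 11 RNA-binding regulator genes 4 rose, against 48.1% of all genes, and 1 fell, against 29.7%. TIS11 (CTH2), whose protein promotes decay of mRNAs of iron-using enzymes when iron is scarce, had -2.25, -2.13, -2.22 and -2.33 with isopropanol, against -4.26, -4.25, -4.57 and -4.18 in control. It was 4.24-fold higher (log2 2.09, SE 0.08, adjusted p = 7.65e-09), and 0.99 on the log2 scale with normexp (adjusted p = 0.0324). Its relative CTH1 was 1.34-fold higher (0.42, adjusted p = 1.37e-05), and JSN1, of the Puf family, 1.38-fold higher (0.46, adjusted p = 8.33e-05; 0.13 and not passed with normexp). PUB1, for a poly(U)-binding protein that stabilises some mRNAs, was 1.42-fold lower (-0.51, SE 0.15, adjusted p = 0.0113), a call lost with normexp.

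Among 5 accessory genes of nonsense-mediated and no-go decay 2 rose and 1 fell, shares not far from the 48.1% and 29.7% of all genes. HBS1 and DOM34, for the pair that rescues stalled ribosomes, were 1.36-fold and 1.17-fold higher (0.44 and 0.23, adjusted p = 6.28e-06 and 0.00086), and DOM34 lost its call with normexp, quantile normalization (0.072) and median centring (0.070). RLI1, for the ribosome recycling factor, was 1.44-fold lower (-0.52, adjusted p = 0.000267). On the spike-in scale the lowest change in any of these 5 lists was 0.33, and without isopropanol replicate 1 it was -0.10, among the nuclear decay cofactors.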

How the data were processed

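Total RNA was labelled with Cyanine 3, per the labels' protocols, and read on 8 Agilent arrays of 1 colour. Feature Extraction 9.5.3.1 wrote the deposited scanner files, per the file headers (the submitters' processing notes say version 9). Its processed intensity is background-subtracted and detrended but not scaled between arrays, per the file headers. In the series matrix the authors deposited log2 values. Set against the scanner values, these were log2 intensity over the 75th percentile (array medians -1.52 to -1.32, rank correlation 0.997 to 1), in the same direction and without centring of genes. Other steps behind them are not given in the sources used here.

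From the processed intensity the log2 was computed, less the 75th percentile of the yeast spots of that array. Control spots were dropped, as were 0 to 21 spots of an array that the software marked non-uniform or outlying. No array had a saturated spot. Both spots of a probe were averaged, a probe was kept if it cleared background on all arrays of either group, and the brightest probe stood for each of 28 genes with several. Symbols came from a RefSeq gene table (R64) by systematic name, where 5765 of 6256 probes matched a locus tag and 491 kept the name in the file. The array annotation is of an older build (sacCer1), so coordinates are not given.

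Titles gave the groups (4 isopropanol, 4 control) and replicate numbers. The groups were compared with limma 3.58.1 in R 4.3.3, and p-values were adjusted by Benjamini-Hochberg for the 5816 genes tested. The fit was tested on simulated data. Alternatives were normexp (offset 50, on median spot and background signals), quantile normalization, median centring, cyclic loess, spike-ins, the series matrix, other filters and probe rules, a replicate block and leaving out single arrays. Arrays with the same number did not deviate together (correlations -0.16 to 0.041). The number of arrays, 4 per group, limits the precision. Members and lists were chosen with earlier results of these data known. All 41 members are named. Of each other list up to 4 genes with the largest changes among those that passed are named, plus LSM8 and the remaining Ccr4-Not genes. The 8 ratio pairs were added after the files were read. Promoter sequences were not used here.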

Additional observations from a re-analysis of the deposited data

Results flagged for a closer look

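Among 82 sets of 4 values (41 members in each group) 2 held an array far from its 3 neighbours, by a gap over 0.829 of the whole range, where chance gives about 1 in 20. RRP6 stood at -0.34 (log2, relative to the 75th percentile) on isopropanol replicate 4, with the nearest isopropanol array at -0.46. Without that array the fall of RRP6 was -0.35, against -0.32 over all arrays. CSL4 stood at -0.33 on isopropanol replicate 4, with the nearest at -0.13. Without that array the fall of CSL4 was -0.13 (adjusted p = 0.00972), against -0.19.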

How the results depend on the processing

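Members called higher, 8 as reported, numbered 1 with normexp, 3 after quantile normalization, 1 after median centring, 3 after cyclic loess, 23 on the spike-in scale, 29 on that scale without isopropanol replicate 1, and 6 to 8 without single arrays. Members called lower, 24 as reported, numbered 0 on both spike-in scales and 23 to 24 without single arrays. On the spike-in scale 4543 of all 5816 genes were called higher, and 4886 on that scale without isopropanol replicate 1. Genes called in all (4525) were 2456 with normexp and 4357 to 4546 without single arrays. Median changes under normexp, quantile normalization, median centring, cyclic loess, spike-ins and spike-ins without isopropanol replicate 1 were -0.16, -0.25, -0.14, -0.22, 1.18 and 0.72 for decapping (-0.030 to 0.037 without single arrays) and -0.54, -0.63, -0.53, -0.61, 0.78 and 0.36 for the Lsm ring (-0.41 to -0.31). They were -0.22, -0.30, -0.28, -0.28, 1.04 and 0.64 for deadenylation (-0.13 to -0.10) and -0.043, -0.0047, 0.034, 0.0027, 1.35 and 0.94 for Ski (0.19 to 0.20). They were -0.38, -0.37, -0.50, -0.36, 0.81 and 0.41 for the exosome (-0.37 to -0.32) and 0.02, 0.04, -0.0022, 0.04, 1.31 and 0.91 for nonsense-mediated decay (0.07 to 0.21). The median of all genes under the same settings was -0.08, -0.02, -0.05, 0.01, 1.27 and 0.86. On the spike-in scale signs turned for DCP1 0.73, DHH1 0.98, PAT1 1.12, EDC3 0.82, LSM1 0.68, LSM2 0.63, LSM3 0.78, LSM4 0.65, LSM5 0.84, LSM6 0.89, LSM7 0.83, POP2 1.15, CAF40 0.91, NOT3 0.92, NOT5 0.31, PAN2 0.89, SKI8 0.92, RRP4 1.11, RRP6 0.84, RRP40 0.71, RRP41 0.64, RRP42 0.59, RRP45 0.59, RRP46 0.65, CSL4 0.97, MTR3 0.81, DIS3 0.93 and UPF3 1.06. Without isopropanol replicate 1 these were DCP1 0.33, DHH1 0.62, PAT1 0.71, EDC3 0.43, LSM1 0.29, LSM2 0.23, LSM3 0.37, LSM4 0.22, LSM5 0.45, LSM6 0.52, LSM7 0.36, POP2 0.74, CAF40 0.47, NOT3 0.54, PAN2 0.52, SKI8 0.52, RRP4 0.69, RRP6 0.44, RRP40 0.32, RRP41 0.23, RRP42 0.19, RRP45 0.18, RRP46 0.22, CSL4 0.54, MTR3 0.41, DIS3 0.52 and UPF3 0.65. Signs also turned for XRN1 after median centring (-0.062), and to a fall that passed for EDC1 after quantile normalization (-0.37) and cyclic loess (-0.28), CCR4 after cyclic loess (-0.22) and RRP43 after median centring (-0.16). Signs turned without passing in either fit for EDC1 with normexp (-0.54) and median centring (-0.0012), CCR4 with normexp (-0.23), quantile normalization (-0.23) and median centring (-0.051), and RRP43 after quantile normalization (-0.092) and cyclic loess (-0.044). They did so for EDC2 with normexp (-0.019), median centring (-0.082) and without isopropanol replicate 1 (-0.021), NAM7 after median centring (-0.0022) and UPF3 after quantile normalization (0.0058). POP2 and RRP43, both near 0, also changed sign without single arrays (POP2 up to 0.0097, RRP43 down to -0.029). They turned for PAN3 after quantile normalization (-0.037), median centring (-0.037) and cyclic loess (-0.049), and for SKI3 with normexp (-0.11), quantile normalization (-0.091), median centring (-0.012) and cyclic loess (-0.076). The cause was not tested. With the replicate number as a replicate block 4397 genes and 6 rising members were called, and XRN1 (adjusted p = 0.106) and PAN3 (adjusted p = 0.0721) lost their calls. The low correlations between arrays of the same number cannot show whether the numbers pair the arrays. The 4 arrays per group, each group on 1 slide, limit what small changes can show.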

Other observations

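Isopropanol replicate 4 also stood apart for EDC2 and CDC39, whose spread was wide, but not for every gene of wide spread. For EDC2 it lay at -0.13 (log2 signal over the 75th percentile), while isopropanol replicates 1 to 3 lay at 0.57 to 0.74, and for CDC39 at -1.98 against -1.32 to -1.23. For PUB1 isopropanol replicates 4 and 1 lay together at -0.49 and -0.47, against 0.10 and 0.22 on replicates 2 and 3. For CCR4 isopropanol replicate 4 (-2.77) lay within the range of the other isopropanol arrays (-3.11 to -2.65).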
